A study of Mus musculus with 163 samples.

Results

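*Cnr1*, the gene of the cannabinoid receptor CB1, divides mouse hypothalamic cells with *Pomc*-driven GFP and low *Agrp* into 34 Cnr1-positive and 81 Cnr1-negative cells. The groups were chosen by measured values. Cells with *Agrp* below 10 log2RPM, the log2 of reads per M reads (RPM), were kept, and a cell was Cnr1-positive at 5 RPM or more, which is 2.32 log2RPM. The remaining 48 sequenced cells, with *Agrp* at or above 10 log2RPM (12 Cnr1-positive and 36 Cnr1-negative), had no part in choosing the genes named here and are given beside them.

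All cells came from 1 labelled group. Each library was made from a single GFP-positive cell, which the labels call a Pomc-EGFP expressing neuron. The cells were sorted from the mediobasal hypothalamus of C57/BL6 Tg(Pomc-EGFP)1Low males aged 7 to 9 weeks. The mice were fed ad libitum, and no treatment is named. The GFP is driven by *Pomc* sequences, so the sort selects on their activity. No animal, plate or batch is named in the labels, which makes the cells 1 sample, and cells are not replicates. Every difference below is a description of these cells, with the SD over cells and no test, and exact Clopper-Pearson 95% intervals of shares cover counting error only.

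CB1 is a receptor coupled to Gi/o proteins. It sits largely on axon terminals, where it lowers calcium entry, opens inwardly rectifying potassium channels and reduces the release of transmitter. Its lipid ligands, the endocannabinoids, are made on demand in the neighbouring cell, and CB1 activation in the hypothalamus is known to promote feeding. POMC neurons themselves release melanocortin peptides that lower food intake.

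*Cnr1* (ENSMUSG00000044288, chr4:33924593-33948831, plus strand, GRCm38) was well separated from the cut-off in the positive cells. These 34 cells (29.6% of the *Agrp*-low cells, interval 21.4% to 38.8%) ran from 3.01 through a median of 5.83 to 9.78 log2RPM, and each held at least 43 *Cnr1* reads, with a median of 491. The 81 negative cells ran from -0.91, the value of a gene with 0 reads, through a median of -0.63 to 2.15 log2RPM. Of these, 32 had 0 *Cnr1* reads and 49 had some, with a median of 3. The values just below the cut-off were 2.06, 2.11 and 2.15 log2RPM, and those just above it were 3.01, 3.30 and 3.46. The *Agrp* limit was less clean: below it lay 6.82, 7.15 and 9.99 log2RPM and above it 10.12, 10.29 and 10.45. Among the *Agrp*-high cells 12 of 48 were Cnr1-positive (25%, interval 13.6% to 39.6%), and this interval includes the share of the *Agrp*-low cells.

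**Figure D1:**
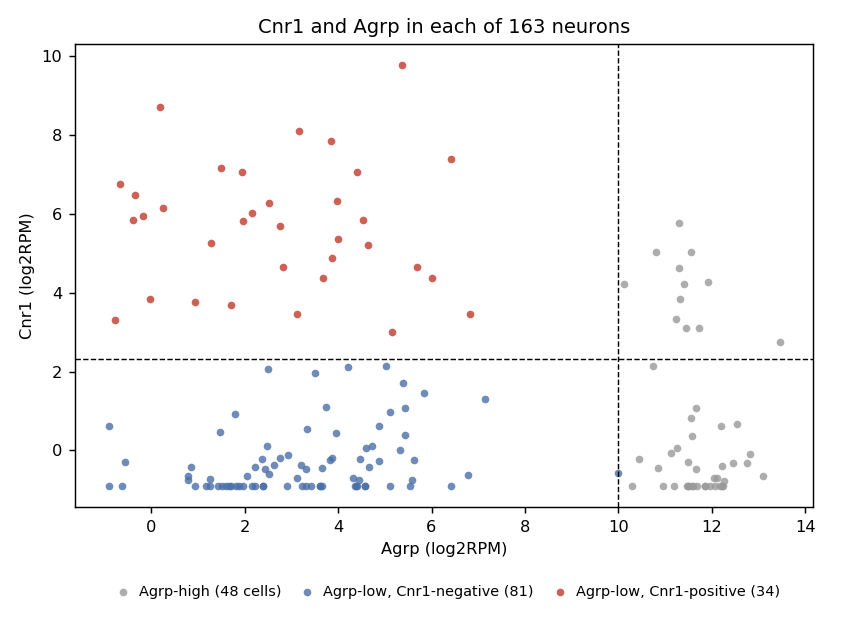
*Cnr1* against *Agrp* in each sequenced cell, both in log2RPM, with dashed lines at the cut-off for *Cnr1* and the limit for *Agrp*. The 34 positive *Agrp*-low cells lie at 3.01 or above on the *Cnr1* axis, and the 81 negative ones at 2.15 or below.

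Depth was similar in both groups. The median was 8.11 M reads in the positive cells (1.46 to 41.9) and 8.08 M in the negative cells (1.59 to 35.3), and 6735 ± 907 and 6726 ± 900 genes stood at 5 RPM or more (SD over 34 and 81 cells). No pair of libraries correlated above 0.784. The positive share was 26.5% in the cells numbered 1 to 66 (9 of 34), 37% in those numbered 67 to 98 (10 of 27) and 27.8% in those numbered 99 and above (15 of 54), with intervals that overlapped. Limits of these ranges were set with the *Agrp* levels of the cells known.

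Not every cell matched the label of a hypothalamic neuron. *Snap25*, *Ncam1*, *Actb* and *Gapdh* were above 5 RPM in every *Agrp*-low cell. However, 8 Cnr1-negative cells stood apart, all numbered 99 and above. Their mean over 17 immediate early genes, which neurons and other cells switch on within minutes of a stimulus, was 8.06 to 10.23 log2RPM, against at most 3.93 in the other 73 negative cells and 3.94 in the 34 positive cells. Their *Rbfox3*, which marks mature neurons, was 1.06 log2RPM or lower, while their *Pomc* had a median of 13.97. A gene of the pituitary was also high there. *Tbx19*, the regulator of *Pomc* in pituitary corticotrophs, had a median of 8.68 log2RPM in these 8 cells and -0.91 in the *Agrp*-low cells that did not stand apart. *Slc17a6* and *Gad1*, the transmitter genes described below, were both below 5 RPM in 6 of the 8.

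Low *Stmn2*, a gene of growing neurites, picked out 11 cells below 6.5 log2RPM (1 positive and 10 negative, of which 7 were among the 8 cells above). All other *Agrp*-low cells lay at 6.74 or higher. Together these kinds took in 12 cells, 1 positive and 11 negative, with a median of 5435.5 genes at 5 RPM or more against 7024 in the rest. The limits, and the genes *Stmn2*, *Rbfox3* and *Snap25*, were chosen after the values were seen. Values without the 12 cells are given for the leading genes, for some of the lists and for a part of the other genes. Without them 33 positive and 70 negative cells remained.

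**Figure D2:**
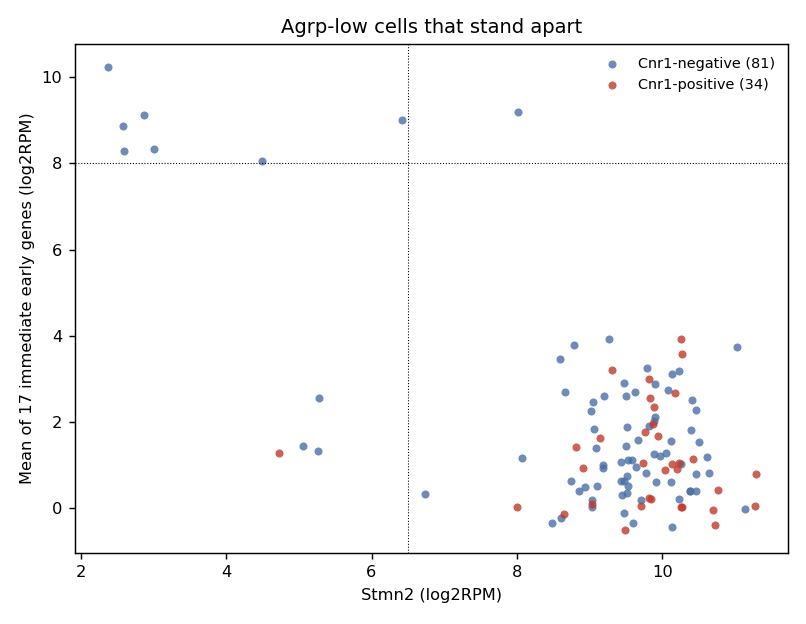
Mean of 17 immediate early genes against *Stmn2* in the *Agrp*-low cells, both in log2RPM, with dotted lines at 8 and 6.5. The 8 cells above 8 are all Cnr1-negative, and 1 Cnr1-positive cell lies below 6.5 on the *Stmn2* axis.

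No member of the oligodendrocyte (5 measured), oligodendrocyte precursor (2), astrocyte (3), tanycyte (3) or pituitary (3) lists differed by 1 or more, and no microglial or endothelial marker was in the table. Summed oligodendrocyte markers ranged from 3.22 to 461 RPM in positive and from 3 to 152000 RPM in negative cells, and summed pituitary markers from 1.99 to 296 and from 1.75 to 17700 RPM. *Pdgfra* and *Olig1*, which define oligodendrocyte precursors, were each below 5 RPM in all but 1 of the 34 positive cells, and in all but 6 and 9 of the 81 negative cells. Cells with 3 or more markers of 1 such list at 10 RPM or more numbered 6 of 34 and 11 of 81. For the oligodendrocyte list alone they numbered 5 and 9. The precursor list, with 2 measured, could not reach 3, and the astrocyte, tanycyte and pituitary lists needed all 3 members. The count therefore says little about those 4 lists, and it flagged no cell for the pituitary list despite the *Tbx19* values above.

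Across 12186 genes, without *Cnr1*, 348 had a mean at least 1 log2RPM higher in Cnr1-positive cells (2.86% of the genes) and 356 a mean at least 1 lower (2.92%). The median difference, positive minus negative, was -0.02. The rule used this contrast, so these counts are the background for the lists and nothing more. The 30 leading genes, 15 in each direction, overlapped between the groups without exception, and each of the 30 differences was below the pooled SD over cells (2.37 to 3.17). Shares of cells above 5 RPM differed by a median of 27.2 percentage points for the 15 higher genes and -27.1 for the 15 lower ones, while the means over the cells above 5 RPM differed by a median of 0.70 and -0.74 log2RPM.

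The highest difference was that of *Pcdh8* (chr14:79766772-79771312), a protocadherin at synapses. It ran from -0.91 through a median of 5.20 to 8.04 log2RPM in positive cells and from -0.91 through -0.07 to 7.07 in negative cells. It was above 5 RPM in 21 of 34 cells (61.8%, interval 43.6% to 77.8%) and in 22 of 81 (27.2%, 17.9% to 38.2%), and the means were 3.80 ± 3.30 and 1.29 ± 2.73, a difference of 2.51. The median positive cell thus held *Pcdh8* and the median negative cell did not, with wide overlap.

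*Cdh13*, a cadherin anchored in the membrane without a cytoplasmic tail, was above 5 RPM in 32 of 34 positive and 56 of 81 negative cells. Its median was 7.96 log2RPM in positive cells (-0.01 to 10.24) and 6.19 in negative cells (-0.61 to 9.85), and its means differed by 2.12. *Sez6*, a membrane protein of dendrites and synapses, had medians of 5.95 (-0.91 to 8.56) and 3.50 log2RPM (-0.91 to 8.75), in 29 and 43 cells above 5 RPM, and differed by 2.09. Nearly all positive cells therefore carried *Cdh13*, and 2 of the 34 did not reach 5 RPM.

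*Sema5a*, a semaphorin of axon guidance, differed by 2.12 (24 of 34 and 32 of 81 cells) and *Lrrtm1*, an organiser of excitatory synapses, by 1.84 (22 and 36). *Nptx2*, a secreted pentraxin that clusters AMPA receptors, differed by 2.03 (18 and 18). The secreted proteins *Dkk3*, *Igfbp5* and *Sparcl1* differed by 2.03, 1.95 and 1.83, and *Sparcl1* was also the most widely detected of them, in 31 positive and 60 negative cells. *Cadps2*, which primes dense-core vesicles for release, differed by 1.90. The rest were *Cpne4* (2.08), *Inpp4b*, a phosphatase of inositol lipids (2.03), *Hecw1*, a ubiquitin ligase (1.81), the transcript 4732456N10Rik (1.81) and the orphan receptor *Gpr22* (1.77). A positive cell had a median of 10 of these 15 genes above 5 RPM (5 to 15), and a negative cell a median of 6 (1 to 12). The genes were chosen for their difference between these cells and for being above 5 RPM in at least 50% of the positive ones, so the choice itself fixes the direction of this count.

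Lower in the positive cells was *Rasgrp1* (chr2:117279993-117343001), which activates Ras in response to diacylglycerol and calcium. It ran from -0.91 through a median of 0.25 to 8.12 log2RPM in positive and from -0.91 through 5.20 to 9.40 in negative cells. It was above 5 RPM in 10 of 34 (29.4%, interval 15.1% to 47.5%) and 54 of 81 cells (66.7%, 55.3% to 76.8%), and its difference was -2.85, the largest of the 30. Here the negative cells were the ones that mostly held the gene.

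*Igsf1*, an immunoglobulin protein of hypothalamus and pituitary, had a median of 1.74 log2RPM in positive cells (-0.63 to 7.65) and 5.44 in negative cells (-0.91 to 10.07). It was above 5 RPM in 14 of 34 and 60 of 81 cells, a difference of -2.52. *Npy5r*, a receptor of neuropeptide Y, differed by -1.96 and is taken up with the receptors below.

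The other lower genes were *Tmem186* (-2.24), *Lyrm1* (-2.07), the torsin *Tor1b* (-1.95), the polarity gene *Pard6a* (-1.95), the amino acid transporter gene *Slc38a10* (-1.77), *Brf1* of RNA polymerase III (-1.74), *Cdk5rap3* (-1.74), *Lcmt2* (-1.73), *Tubgcp4* of the gamma-tubulin complex (-1.72), the small heat shock gene *Hspb1* (-1.72), the histone gene *Hist1h2bc* (-1.71) and *Coq10b* (-1.71). Of the 30 leading genes, 29 matched the annotation by symbol, and 8 of those overlap another protein-coding gene, so that their reads may be shared: *Cadps2*, *Lrrtm1*, *Gpr22*, *Tmem186*, *Lyrm1*, *Brf1*, *Lcmt2* and *Tubgcp4*.

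**Figure D3:**
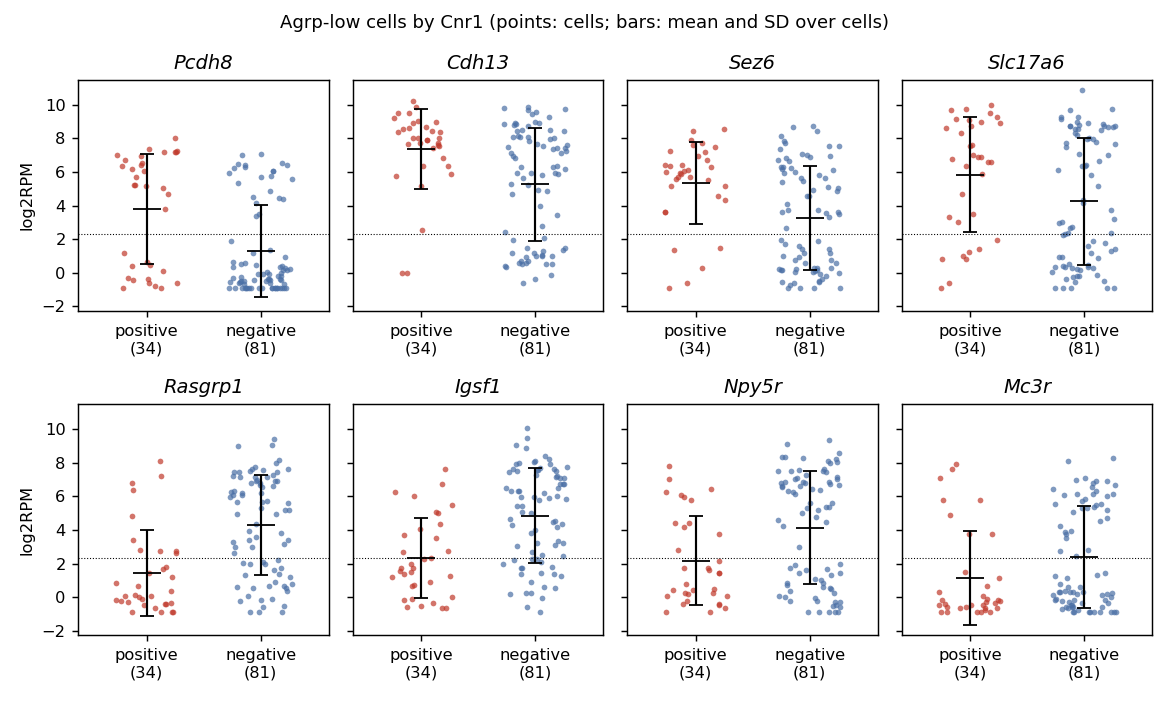
Level of 8 genes in each *Agrp*-low cell (log2RPM), Cnr1-positive (34) against Cnr1-negative (81), with mean and SD over cells and a dotted line at 5 RPM. Each gene has cells below 5 RPM and cells above 6 log2RPM in both groups, and the groups differ in how many cells lie in the upper cloud, as for *Rasgrp1* with 10 of 34 and 54 of 81.

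Leaving out the 12 cells that stood apart, the 15 higher genes differed by 1.61 to 2.38 and the 15 lower ones by -3.22 to -1.04. With a new ranking 10 of the 15 higher and 7 of the 15 lower genes were again among the first 15. *Hspb1* moved from -1.72 to -1.04 and *Hist1h2bc* from -1.71 to -1.12. Within the 3 ranges of cell numbers all 15 higher genes kept their sign, 9 of them at 1 or more in each range, and 13 of 15 lower genes did. The genes were chosen on the mean over these same cells, which largely fixes the signs within parts of them. The exceptions were *Hist1h2bc* (0.49) and *Coq10b* (0.10) in cells 1 to 66. Spread over the ranges was large: *Rasgrp1* differed by -1.03, -5.24 and -2.46, and *Cpne4* by 0.31, 0.83 and 4.14. In 3 equal parts of the cells by *Pomc*, 14 of 15 higher and 14 of 15 lower genes kept their sign in all 3.

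The *Agrp*-high cells had no part in the rule, and there the pattern was weak. Of the 15 higher genes 9 were above 0 between the 12 Cnr1-positive and 36 Cnr1-negative cells, with a median of 0.33, where 50.9% of all genes were above 0. Of the 15, 3 were at least 1 higher (*Sema5a*, 1.79; *Cadps2*, 1.23; *Gpr22*, 1.05), against 6.58% of all genes. Of the 15 lower genes 11 were below 0, with a median of -0.20, where 49.1% of all genes were below 0. Among these 15, 1 was at least 1 lower (*Slc38a10*, -1.21), against 4.85% of all genes. *Rasgrp1* and *Igsf1* stood high in those cells whatever their *Cnr1*, at means of 7.59 and 8.26 log2RPM in positive and 7.71 and 7.41 in negative ones. *Lrrtm1*, 1.84 higher in *Agrp*-low cells, was -1.61 here.

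**Figure D4:**
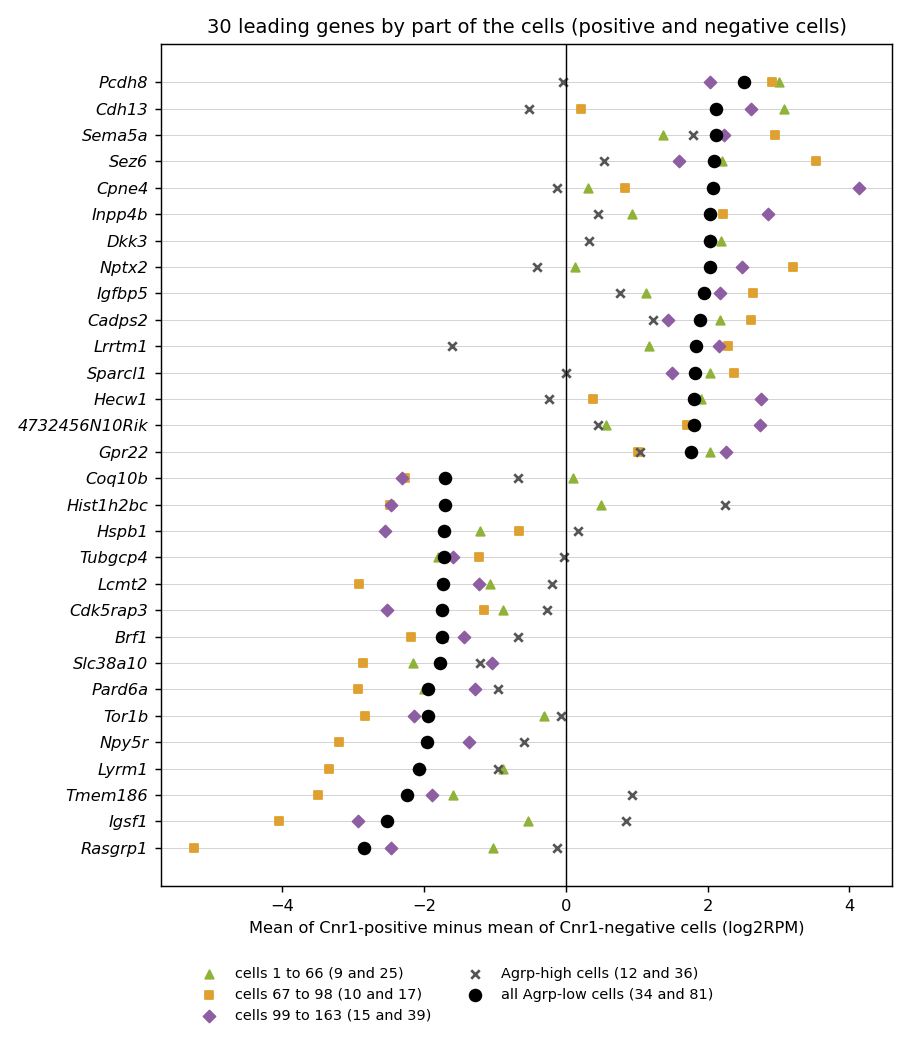
Difference of mean log2RPM between Cnr1-positive and Cnr1-negative cells for the 30 leading genes, in all *Agrp*-low cells (black circles), in 3 ranges of cell numbers and in the *Agrp*-high cells (crosses). In the *Agrp*-low ranges, whose cells were used to choose the genes, 28 of 30 keep their side of 0. The *Agrp*-high cells were not used, and their crosses run from -1.61 for *Lrrtm1* to 2.24 for *Hist1h2bc*.

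Within the positive cells Spearman's rho with *Cnr1* had a median of -0.04 for the 15 higher genes and -0.09 for the 15 lower ones. In each of these 34 cells both genes come from 1 library. For the higher genes rho was -0.20 to 0.30, above 0 for 6 of 15, where 47.5% of all genes were above 0. For the lower genes it was -0.43 (*Coq10b*) to 0.31, below 0 for 12 of 15, where 52.5% of all genes were below 0. Among the negative cells, the 49 with some *Cnr1* reads exceeded the 32 with 0 reads for 14 of the 15 higher genes, with a median difference of 0.85. *Cadps2* was the exception at -0.74. However, 71.4% of all genes were higher in the cells with some reads, which also had more genes at 5 RPM (6987 ± 749 against 6326 ± 975). Of the 15 lower genes 6 were lower in the cells with some reads, where 28.6% of all genes were.

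The vesicular transporters of glutamate and GABA differed in opposite directions. *Slc17a6*, the vesicular glutamate transporter VGLUT2, ran from -0.91 through a median of 6.84 to 9.96 log2RPM in positive cells and from -0.91 through 3.21 to 10.87 in negative cells. It was above 5 RPM in 26 of 34 (76.5%, interval 58.8% to 89.3%) and 47 of 81 cells (58%, 46.5% to 68.9%), a difference of 1.59, or 1.16 without the 12 cells. *Slc32a1*, the vesicular GABA transporter, was found in 4 of 34 and 23 of 81 cells and differed by -1.01. The positive cells leaned to the glutamate transporter, yet both intervals for *Slc17a6* overlap.

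*Gad1*, a GABA-synthesizing enzyme, was found in 30 of 34 and 71 of 81 cells, and its mean differed by -0.78, or -1.36 without the 12 cells. *Gad2*, the second such enzyme, differed by 0.36 over all cells and 0.08 without the 12 cells, by -2.07 and -2.47 in cells 1 to 66 and 67 to 98, and by 3.48 in cells 99 and above. The value over all cells therefore hides opposite differences. Cells with both *Slc17a6* and *Gad1* made up 22 of 34 positive and 43 of 81 negative cells. Those with *Slc17a6* alone made up 4 and 4, and those with *Gad1* alone 8 and 28. Cells with neither numbered 0 and 6, and all 6 were among the cells that stood apart.

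None of the 15 measured enzymes of endocannabinoid synthesis and breakdown and CB1 binding proteins differed by 1 or more. For synthesis, *Dagla*, the main maker of 2-arachidonoylglycerol, was above 5 RPM in 7 of 34 and 11 of 81 cells and differed by 0.19, and *Daglb* by -0.40 (17 and 43), or -0.16 without the 12 cells. *Napepld*, which makes anandamide, was found in 20 of 34 and 42 of 81 cells (0.51). *Gde1* and *Abhd4*, of another route to anandamide, differed by -0.18 and -0.33. Over all cells these 5 genes thus differed by less than 1, but *Daglb* differed by 0.64, 1.62 and -2.04 in the 3 ranges of cell numbers, so that its value over all cells hides opposite differences. The spread between cells (SD of 1.59 to 3.09) was wider than any of these differences.

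For breakdown, *Mgll*, the monoacylglycerol lipase, was found in 8 of 34 and 20 of 81 cells and differed by 0.09, and *Faah*, which hydrolyses anandamide, in 14 and 35 (-0.25). *Abhd6* and *Abhd12* differed by -0.29 and -0.22. *Abhd6* was likewise mixed, at 1.38 in cells 67 to 98 and -1.10 in cells 99 and above. *Naaa*, an acid amidase of lysosomes, came nearest to the limit: its median was 5.36 log2RPM in positive cells (-0.91 to 7.82) and 4.37 in negative cells (-0.64 to 8.02), in 28 of 34 and 49 of 81 cells, a difference of 0.94. In *Agrp*-high cells *Naaa* differed by -1.42.

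Proteins that bind CB1 were widely present. *Sgip1* and *Gprasp1* were above 5 RPM in every cell, at 6.71 ± 0.89 and 6.73 ± 0.92 log2RPM for *Sgip1* in positive and negative cells and 9.87 ± 1.01 and 9.71 ± 0.81 for *Gprasp1*. *Cnrip1*, which interacts with the receptor's tail, was found in 33 of 34 and 75 of 81 cells (0.28, or -0.28 without the 12 cells). The arrestins *Arrb1* and *Arrb2* differed by 0.80 (14 and 19 cells) and 0.08 (20 and 51), and *Arrb2* by -0.11 without the 12 cells. No other cannabinoid-responsive receptor of the list was in the table.

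Of 28 Gi/o proteins and effectors through which CB1 acts, 2 were at least 1 higher and none at least 1 lower, with a list median of 0.28. Both were subunits of the inwardly rectifying potassium channels. *Kcnj5* was above 5 RPM in 11 of 34 (32.4%, interval 17.4% to 50.5%) and 4 of 81 cells (4.94%, 1.36% to 12.2%) and differed by 1.59, with differences of 0.81, 1.75 and 2.05 in the 3 ranges of cell numbers. In the *Agrp*-high cells it differed by 2.07. *Kcnj3* was found in 25 and 48 cells and differed by 1.04, or 0.73 without the 12 cells. *Rgs7*, which ends Gi/o signals, differed by -0.93, or -1.12 without the 12 cells.

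*Pomc* itself was above 5 RPM in 33 of 34 positive and all 81 negative cells. It ran from 1.01 through a median of 10.33 to 14.95 log2RPM in positive and from 2.71 through 8.27 to 16.06 in negative cells, a difference of 0.51, or 1.02 without the 12 cells. The positive share was 21.1% in the third of cells with the lowest *Pomc* (8 of 38), 28.9% in the middle (11 of 38) and 38.5% in the highest (15 of 39), with intervals of 9.55% to 37.3%, 15.4% to 45.9% and 23.4% to 55.4% that overlap. *Cartpt*, whose peptide POMC neurons also release, differed by -0.80, or -1.07 without the 12 cells.

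In the list for POMC identity and peptide processing (17 measured), 3 were at least 1 higher and 1 at least 1 lower. *Pcsk2*, a convertase needed for alpha-MSH, had a median of 6.90 log2RPM in positive cells (0.07 to 9.50) and 4.91 in negative cells (-0.91 to 9.48), in 31 and 54 cells, a difference of 1.77. *Pcsk1*, the convertase that acts before it, was found in 20 and 66 cells and differed by -1.39, though by -0.31 in cells 1 to 66. *Prdm12* and *Nhlh2*, transcription factors of POMC neurons, differed by 1.32 and 1.29, though *Prdm12* by 0.09 in cells 67 to 98. The convertases thus lay on opposite sides. Without the 12 cells *Pcsk2* differed by 1.62 and *Pcsk1* by -1.56.

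*Agrp* and *Npy*, which mark the opposing feeding neurons, differed by -0.58 and -0.95, and *Npy* was above 5 RPM in 26 of 34 and 75 of 81 cells. The rule limits *Agrp* from above in both groups. None of 6 AgRP neuron markers differed by 1 or more. Of 16 other neuropeptides and secreted factors, 2 were at least 1 higher (*Ttr*, 1.27, and *Adcyap1*, 1.11) and 2 at least 1 lower (*Penk*, -1.51, and *Pnoc*, -1.14). *Penk*, the enkephalin gene, differed by -3.33 in cells 1 to 66 and by 0.12 in cells 67 to 98. *Gal*, *Sst*, *Trh* and *Bdnf* differed by -0.60, -0.05, 0.58 and -0.42.

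Of the receptors for neuropeptide Y, *Npy5r* and *Npy1r* were at least 1 lower. *Npy5r* had a median of 1.44 log2RPM in positive cells (-0.91 to 7.81) and 5.31 in negative cells (-0.91 to 9.33), in 12 of 34 (35.3%, interval 19.7% to 53.5%) and 48 of 81 cells (59.3%, 47.8% to 70.1%). *Npy1r* had medians of 4.25 (0.65 to 8.68) and 6.56 (0.12 to 9.64), in 20 and 59 cells, and differed by -1.30, with 0.16 in cells 1 to 66 and -2.34 in cells 99 and above. Both receptors together were found in 11 of 34 and 43 of 81 cells. *Npy2r* was at 50.0% and 48.1% of cells and differed by 0.05. Of the 3 receptors *Npy5r* was the one with a difference past -1 in each range of cell numbers.

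*Cckar*, the cholecystokinin receptor of satiety signals, was above 5 RPM in 13 of 34 (38.2%, interval 22.2% to 56.4%) and 14 of 81 cells (17.3%, 9.78% to 27.3%) and differed by 1.78, and by 1.28 or more in each range. *Sstr2*, a somatostatin receptor, was found in 11 and 6 cells (1.44), and *Grm7*, a presynaptic glutamate receptor, differed by 1.35. In all, 3 of 38 neuropeptide and monoamine receptors were at least 1 higher and 2 at least 1 lower. *Htr2c*, a serotonin receptor, was found in 29.4% and 29.6% of cells.

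*Mc3r*, a melanocortin receptor, was found in 8 of 34 (23.5%, interval 10.7% to 41.2%) and 36 of 81 cells (44.4%, 33.4% to 55.9%), with medians of -0.24 and 0.80 log2RPM, and differed by -1.24, or -1.61 without the 12 cells. *Esr1*, the oestrogen receptor, differed by -1.32 (18 and 54 cells), and by -0.31 in cells 1 to 66. *Lepr* was found in 7 and 13 cells (0.16), *Insr* in 20 and 51 (-0.26), *Mc4r* in 1 and 11 (-0.70), *Glp1r* in 4 and 8 (0.18) and *Ghsr* in 1 and 7 (-0.43). Of 26 metabolic and hormone receptors, 1 was at least 1 higher and 2 at least 1 lower.

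Of 48 excitability channels, 6 were at least 1 higher and 1 at least 1 lower, with a median of 0.19. Without the 12 cells the counts were 3 and 4 and the median 0.01. The ranges of cell numbers differed. In cells 1 to 66, 3 were higher and 12 lower (median -0.31). The counts were 9 and 7 in cells 67 to 98 (0.20), and 15 and 0 in cells 99 and above (0.55). Of all genes, 9.2% were higher and 9.35% lower in cells 1 to 66. These shares were 11.7% and 17.2% in cells 67 to 98, and 12.3% and 6.76% in cells 99 and above. Without the 12 cells they were 2.26% and 3.49%. *Kcnd2*, an A-type potassium channel, had the largest difference, 1.7 (29 of 34 and 48 of 81 cells), and 1.51 without the 12 cells. *Cacna2d1*, the calcium channel subunit that binds gabapentin, was above 5 RPM in all 34 positive and 69 of 81 negative cells (1.25), and the potassium channel *Kcnk1* differed by -1.28, though by 0.39 in cells 1 to 66.

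Of 29 ionotropic glutamate and GABA receptor subunits, 5 were at least 1 higher and 1 at least 1 lower, with a median of 0.44. Without the 12 cells the counts were 1 and 1 and the median 0.22. In cells 1 to 66 they were 1 and 3 with a median of -0.21, in cells 67 to 98 they were 5 and 3 (0.17), and in cells 99 and above 17 and 0 (1.09). The shares of all genes in the same ranges are those given with the channels. *Grin3a*, an NMDA receptor subunit, differed by 1.17, *Gabrg3*, a GABA-A subunit, by 1.11, and *Grik3*, a kainate receptor subunit, by -1.15. Without the 12 cells *Grin3a* differed by 1.10 and *Gabrg3* by 0.85, and in cells 67 to 98 *Gabrg3* differed by -0.19.

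Of 52 synaptic adhesion and guidance genes, 5 were at least 1 higher and 0 at least 1 lower, with a median of 0.22. Without the 12 cells the counts were 4 and 3 and the median 0.06. In cells 1 to 66 they were 6 and 7 with a median of -0.38, in cells 67 to 98 they were 10 and 7 (0.16), and in cells 99 and above 18 and 0 (0.72). *Tenm2*, a teneurin that spans synapses, was found in 33 of 34 and 62 of 81 cells and differed by 1.56, or 1.17 without the 12 cells. Of 30 genes of transmitter release 0 were at least 1 higher and 2 at least 1 lower, *Sv2c* (-1.26), a synaptic vesicle protein, and *Syt1* (-1.18), the calcium sensor of fast release, found in 24 and 75 cells. Their counts were 2 and 4 in cells 1 to 66, 3 and 3 in cells 67 to 98, and 6 and 0 in cells 99 and above. For both lists the counts by range stand beside the shares of all genes given with the channels.

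Of 12 housekeeping and pan-neuronal genes, *Elavl4*, a neuronal RNA-binding protein, was at least 1 higher (1.16) and *Syt1* at least 1 lower. Without the 12 cells *Elavl4* differed by 0.50. *Tubb3* and *Stmn2*, both neuronal, differed by 0.98 and 0.84, and by 0.40 and 0.28 without those cells.

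Of 34 hypothalamic transcription factors, 7 were at least 1 higher and 3 at least 1 lower, and 7 and 4 without the 12 cells. The shares of all genes were 2.86% and 2.92%, and 2.26% and 3.49% without the 12 cells. In cells 1 to 66 the counts were 8 and 7 (median -0.23), in cells 67 to 98 they were 9 and 6 (0.02), and in cells 99 and above 9 and 5 (-0.07). The shares of all genes in these ranges are those given with the channels. *Nkx2-4* was above 5 RPM in 12 of 34 (35.3%, interval 19.7% to 53.5%) and 8 of 81 cells (9.88%, 4.36% to 18.5%) and differed by 1.92, and by at least 1.29 in each range of cell numbers. *Tcf7l2*, a partner of beta-catenin, was found in 11 and 49 cells and differed by -1.61. *Dlx5*, a factor of GABA neurons, was found in 2 and 22 cells and differed by -1.33.

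**Figure D5:**
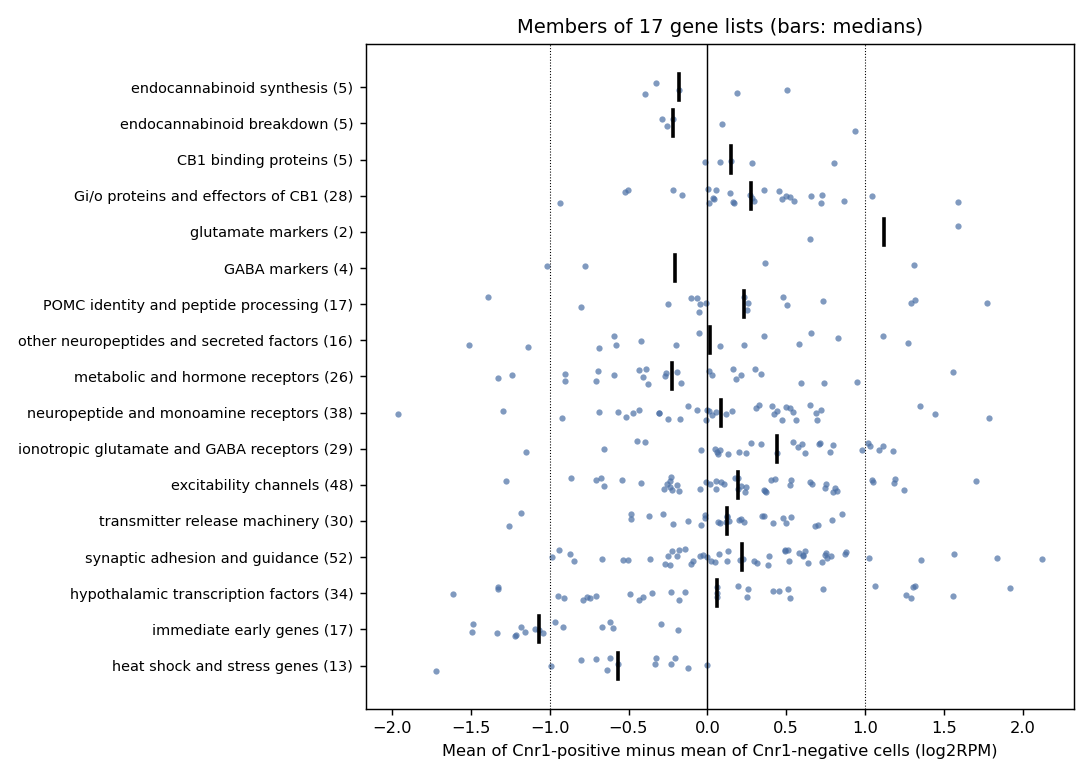
Difference of mean log2RPM, Cnr1-positive minus Cnr1-negative cells, for each measured member of 17 gene lists (number of members in parentheses), with dotted lines at -1 and 1 and a bar at each median. The 15 endocannabinoid and CB1 binding genes lie between -1 and 1, and the immediate early genes lie to the left with a median of -1.07.

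Immediate early genes were the list with the most members at least 1 lower, and this rested on the 8 cells described above. Of 17 measured, 0 were at least 1 higher and 10 at least 1 lower, with a median of -1.07. *Junb* was found in 11 of 34 and 43 of 81 cells (-1.49), *Nr4a1* in 7 and 24 (-1.49) and *Fosl2* in 0 and 17 (-1.33). For 0 of 34 cells an approximate upper limit, 3 cells over 34, is 8.82%, which is not an exact interval. Without the 8 cells 0 of 17 were at least 1 lower and the median was -0.19. Within cells 1 to 66 and 67 to 98, which held none of them, the medians were -0.23 and -0.19.

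The 13 genes of the heat shock and stress list had a median of -0.57, with *Hspb1* at least 1 lower, and a median of -0.18 without the 12 cells. None of 84 respiratory chain genes and none of 75 ribosomal protein genes differed by 1 or more, with medians of 0.09 and -0.01.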

How the data were processed

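Of 163 GFP-sorted cells, 1 library each, 115 had *Agrp* below the limit. The authors deposited log2 values in RPM for 12187 genes, 1 column per cell. Per the labels and the study's methods, reads of SMART-Seq v4 cDNA were demultiplexed with CASAVA 1.7, aligned to GRCm38 with TopHat2 2.0.11 and counted with Cufflinks 2.2.1. The methods also name normalization and a batch correction with edgeR and limma. Whether the deposited values carry that correction is not stated. Their common floor and whole-read steps, given below, are those of values without it, so shifts between batches may remain. The batches, and whether strand was used in counting, are not given in the sources used here. The lowest value (0.532 RPM) stands for 0 reads and is part of every value, so differences of low genes are understated. Low values rise in steps, and each step was taken as 1 read: 99.3% of values between 1 and 20 reads fell on a whole number to a tolerance of 0.1. The median depth was 8.1 M reads, and shallow cells give the least certain detection at 5 RPM.

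The rule, the genes and the lists were chosen with earlier results of these data known. Differences are means of log2RPM of Cnr1-positive minus Cnr1-negative cells. A gene counts as higher or lower at a difference of 1 or more. The steps were checked on simulated data. Named genes are the 15 highest and 15 lowest at 5 RPM or more in at least 50% of the higher group's cells, all endocannabinoid genes, a fixed set of receptors, peptides and transmitter genes, and 3 members of each other list with the largest difference. *Adcyap1*, *Grm7*, *Nhlh2* and *Dlx5* were named after their values were seen. Some genes of these lists are counted but not reported by name here. Python 3.11.15, pandas 2.3.3, numpy 2.4.6 and scipy 1.17.1 were used. Gene positions are the authors', and overlaps come from GENCODE M21 on the same build. Alternatives were other cut-offs for *Cnr1* and *Agrp*, pseudocounts, filters, rescaling, thinning, strata and subsets of cells. Cells left out for *Stmn2* or immediate early genes were chosen after seeing the data. Pituitary and GFP-negative cells were not analysed here.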

Additional observations from a re-analysis of the deposited data

How the results depend on the processing

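Counts of genes past a difference of 1 depended on the scale and on how many cells were averaged. With pseudocounts of 0.1 and 5 RPM in place of the deposited floor, 567 and 55 genes were at least 1 higher and 738 and 45 at least 1 lower, against 348 and 356. Within cells 1 to 66, cells 67 to 98 and cells 99 and above, which average fewer cells, 1121, 1425 and 1502 were higher and 1140, 2094 and 824 lower. Against only the 32 cells with 0 *Cnr1* reads, 1329 were higher. With a *Cnr1* cut-off of 1 RPM the positive share was 47.8% and 170 genes were lower. In the other settings both counts stayed within 1.5 times. Over 20 alternatives the 30 leading genes reversed in 2 of 600 values (*Hist1h2bc*, 0.49, and *Coq10b*, 0.10, in cells 1 to 66), and 6 of the other named genes past 1 reversed in 1 range each: *Npy1r* (0.16), *Kcnk1* (0.39), *Adcyap1* (-0.05) and *Grm7* (-0.11) in cells 1 to 66, and *Penk* (0.12) and *Gabrg3* (-0.19) in cells 67 to 98. The 30 leading genes were chosen on these same cells, which largely fixes their signs in the 20 alternatives. A filter for genes in at least 10% of cells leaves their values unchanged by design. Thinning to 3.14 M reads per cell kept 33 positive and 76 negative cells and gave 324 higher and 410 lower genes. No paired analysis was possible because the labels name 1 group. The causes were not tested. Depth limits the share of cells above 5 RPM most for genes near that level.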
